A study of Homo sapiens with 12 samples.

Results

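Human chromosome 19 carries an unusually dense collection of zinc finger genes. The genes described here are the protein-coding genes of this chromosome whose symbol starts with ZNF and a number. The count table lists 249 of them among 58735 genes. The rule that picks them uses name, position and biotype and no measured value, but it was set with earlier results of these data known. Most encode repeats of the Cys2His2 zinc finger, a small fold in which 2 cysteines and 2 histidines hold a zinc ion and which reads DNA, and many carry a KRAB domain ahead of the fingers. A KRAB domain binds TRIM28 (KAP1), which brings in the histone methyltransferase SETDB1 and heterochromatin proteins, and this machinery is known for silencing transposable elements. The mRNAs of such regulators are known to be short-lived as a class, so that their level follows transcription and decay more closely than that of long-lived mRNAs.

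The libraries were made from polyadenylated RNA of HEK293T cells, a transformed human embryonic kidney line labelled as wild type, in 4 groups of 3. The DMSO group had vehicle, the CEP group had the clickable electrophilic purine AHL-Pu-1, a cysteine-reactive probe, at 25 µM for 1 h, the 4SU group had the uridine analog 4-thiouridine at 100 µM for 16 h, and the CEP+4SU group had both. The study asked whether the conditions under which it captures RNA-binding proteins alter the cells, and the comparisons below ask this of 1 gene family. The labels carry a single protocol for all 12 libraries, including UV light of 312 nm before CEP, and do not say separately whether cells without 4SU were irradiated. They write the CEP dose as 25 mM where the design text has 25 µM. The replicates are called independent in the design text, with no word on which libraries share a culture or a day, so p-values measure the spread between these libraries.

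The depth of a library, its total count on genes, was 16569114 to 24644734, and the members held 0.277% to 0.329% of them. Markers fit the labelled line rather than mature kidney. NEFM and NEFL, neurofilament genes known to be expressed in HEK293 cells, lay at 32.1 to 40.9 and 25.0 to 29.7 FPKM, and the tubule gene UMOD was listed at 0 in 12 of 12 libraries. Of the melanocyte genes, TYR was listed at 0 in all 12 and PMEL lay at 1.15 to 2.73 FPKM. CEP replicate 2 and CEP+4SU replicate 2 had the fewest genes with a count, 22230 and 22627, against 24376 or more in each of the other libraries. In no group did a pair of replicates agree within sampling noise.

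The sequences themselves show how members differ. For 7 members that the results below turn on, the first complete finger with the common spacing (2 residues between the cysteines, 12 to the first histidine and 3 between the histidines) was taken from the GENCODE 29 coding sequence on GRCh38. Each stretch has 63 bases, lies within 1 exon and is written 5′ to 3′ on the coding strand, with the codons of the zinc-binding cysteines and histidines in capitals. The first 3 belong to genes that rose with CEP+4SU, ZNF146 has the highest level, ZNF414 fell with CEP+4SU, and ZNF526 and ZNF787 are GC-rich members discussed with it.
ZNF266, chr19:9414223-9414285, minus strand: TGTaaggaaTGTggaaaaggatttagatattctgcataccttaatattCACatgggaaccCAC
ZNF550, chr19:57547569-57547631, minus strand: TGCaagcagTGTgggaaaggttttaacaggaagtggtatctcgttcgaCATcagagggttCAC
ZNF714, chr19:21117103-21117165, plus strand: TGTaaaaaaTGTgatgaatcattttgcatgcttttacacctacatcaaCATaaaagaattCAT
ZNF146, chr19:36236492-36236554, plus strand: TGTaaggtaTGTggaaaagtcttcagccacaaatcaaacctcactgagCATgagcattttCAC
ZNF414, chr19:8510909-8510971, minus strand: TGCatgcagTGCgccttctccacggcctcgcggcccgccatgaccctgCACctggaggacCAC
ZNF526, chr19:42224578-42224640, plus strand: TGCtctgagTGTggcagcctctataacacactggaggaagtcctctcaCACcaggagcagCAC
ZNF787, chr19:56088908-56088970, minus strand: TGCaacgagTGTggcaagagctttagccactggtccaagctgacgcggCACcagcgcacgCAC
The same fold was thus written with very different bases. G and C made up 27.0% of the stretch in ZNF714 and 36.5% in ZNF266, against 61.9% in ZNF787 and 69.8% in ZNF414. This difference in composition runs through the results below.

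Over whole genes the same contrast held. Translated from the annotation, the members had a median of 12 fingers, with a maximum of 39 in ZNF729, and 3 had none (ZNF738 and the readthrough genes ZNF625-ZNF20 and ZNF816-ZNF321P). A KRAB sequence pattern was found in 209 of the 249. The GC content of a gene's transcripts had a median of 43.7% in these 209 and of 59.6% in the 40 without the pattern, and of the 22 members with a GC content of 60% or more, 20 lacked it. The members lie in 16 clusters when a new one is started at each gap of over 1 Mb, and 9 of the clusters hold 5 or more. The largest, at chr19:55476332-58481230 near the end of the long arm, holds 59 members, and the pericentromeric cluster at chr19:19668796-24129961 holds 37, with a median GC content of 39.3%. Because the family grew by duplication, shared sequence matters for counting. In 193 members under 5% of 100-base stretches also occurred in another gene's transcripts, and in 17 members over 25% did, among them ZNF320, ZNF468, ZNF177 and the readthrough genes, whose counts are uncertain.

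Most members were expressed at a low level. FPKM, which divides counts by gene length and library size and allows genes to be compared, had a median of 1.31 over the 249 members in DMSO (quartiles 0.305 and 2.97), against 3.02 over 265 ZNF genes of other chromosomes and 1.39 over 1223 other protein-coding genes of chromosome 19. A mean of at least 1 FPKM was reached by 145 members. At the lower end, 48 members had under 0.1 FPKM, and 12 (ZNF558, ZNF69, ZNF625-ZNF20, ZNF625, ZNF99, ZNF730, ZNF534, ZNF816-ZNF321P, ZNF415, ZNF665, ZNF677 and ZNF135) had 0 counts in all libraries. A count of 0 allows up to 3 counts in a library, or 0.122 to 0.181 CPM (counts scaled to a common library size) depending on its depth. These genes were thus not detected, and a level below that is not excluded. Whether a 0 came from a low level or from how reads of shared or overlapping sequence were counted was not tested.

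ZNF146, a short protein made almost only of fingers, stood apart at 51.6, 51.6 and 53.8 FPKM in DMSO replicates 1, 2 and 3. ZNF428 followed at 23.9, 20.6 and 24.6 FPKM, ZNF580 at 23.2, 22.6 and 22.8 and ZNF358 at 20.6, 21.3 and 20.8. The values of ZNF428 overlapped those of both others, and ZNF580 lay above ZNF358 in every DMSO library. ZNF787 (13.6, 12.6 and 12.8) and ZNF317 (13.0, 11.8 and 11.3) came next and also overlapped. Of these 6 members, ZNF317 alone had the KRAB pattern. Over the family, the median was 1.17 FPKM with the pattern and 4.36 without it. By position, the median was 0.368 FPKM in the pericentromeric cluster, where 13 of 37 members reached 1 FPKM, and 2.24 in the cluster near the chromosome end, where 46 of 59 did.

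**Figure D1:**
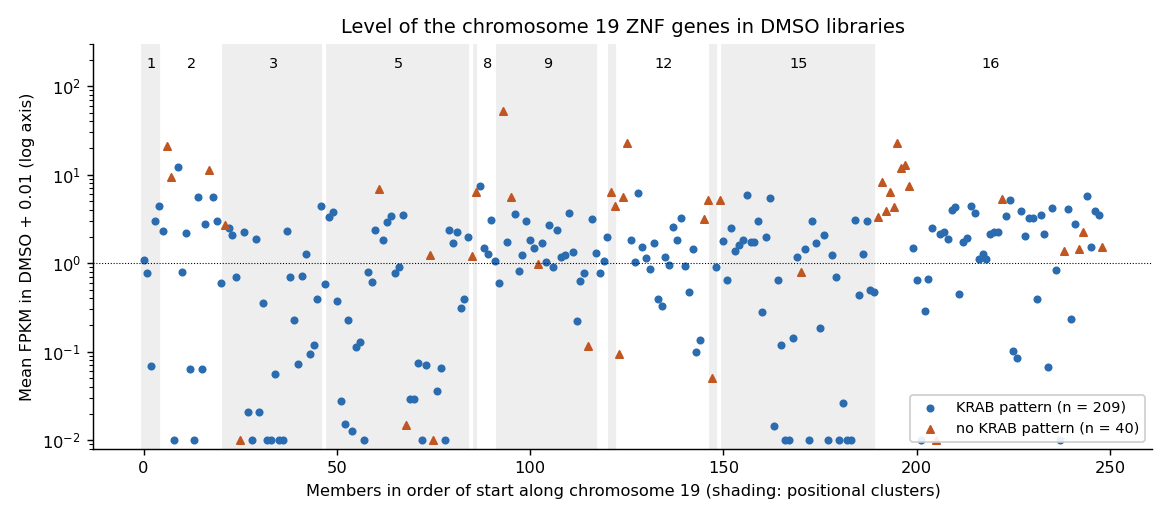
Mean FPKM over the 3 DMSO libraries plus 0.01, on a log axis, for each of the 249 members in order along chromosome 19, with circles for members with a KRAB pattern, triangles for those without, shading for positional clusters (numbered where they hold 5 or more) and a dotted line at 1 FPKM. ZNF146 is the highest point, members without the pattern form the high group at the start of cluster 16, and many members of clusters 3 and 5 lie below 1.

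For the comparisons, edgeR's quasi-likelihood test was run over all genes, with an adjusted p of 0.05 or less as the threshold. Of the 249 members, 205 passed the filter on low counts and 44 did not. With CEP+4SU against DMSO 4 members changed, 3 higher and 1 lower, which is 1.95% of the 205 and close to the 1.64% of all 17729 genes tested, of which 0.643% rose and 0.993% fell. These 4 were ZNF266, ZNF550 and ZNF714, which rose, and ZNF414, which fell. Their levels are given below in CPM on TMM (trimmed mean of M-values) library sizes.

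ZNF266 (ENSG00000174652, chr19:9412461-9435578, GC content 45.3%) is a KRAB zinc finger gene with 12 fingers. It had 32.2, 28.9 and 29.6 CPM in DMSO, 30.3, 42.0 and 38.8 with CEP, 36.4, 44.3 and 41.3 with 4SU. In the CEP+4SU libraries it had 44.4, 44.8 and 42.6 CPM. All 6 libraries with 4SU lay above all 3 DMSO libraries, while CEP replicate 1 lay within the DMSO range. The mean rose from 30.2 ± 1.72 (SD, n = 3) to 43.9 ± 1.13 CPM with both. On the log2 scale it rose by 0.54 ± 0.11 (SE, edgeR adjusted p = 0.0290).

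ZNF550 (ENSG00000251369, chr19:57535257-57559863, GC content 45.2%) is a KRAB zinc finger gene with 8 fingers, and lies in the cluster near the chromosome end. It had 11.2, 11.6 and 9.95 CPM in DMSO, 11.9, 14.3 and 12.6 with CEP, 12.7, 15.2 and 14.97 with 4SU. In the CEP+4SU libraries it had 15.7, 18.7 and 16.0 CPM. Each treated library was above each DMSO library, and those with both compounds were above all others. With both it rose 1.54-fold, by 0.63 ± 0.13 on the log2 scale (SE, edgeR adjusted p = 0.0292).

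ZNF714 (ENSG00000160352, chr19:21082159-21125270, GC content 40.3%) is a 12-finger gene of the pericentromeric cluster in which the KRAB pattern was not found. It had 54.9, 54.1 and 57.4 CPM in DMSO, 62.7, 72.9 and 68.9 with CEP, 59.4, 71.2 and 67.9 with 4SU. In the CEP+4SU libraries it had 63.8, 80.7 and 79.0 CPM. Again every treated library exceeded every DMSO library, but the treated groups overlapped one another. With both it rose by 0.43 ± 0.099 on the log2 scale (SE, edgeR adjusted p = 0.0411).

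ZNF414 (ENSG00000133250, chr19:8509678-8514164, GC content 67.4%) has 3 fingers and no KRAB pattern. It had 23.5, 27.0 and 28.3 CPM in DMSO, 21.4, 15.3 and 15.1 with CEP, 22.2, 18.6 and 21.2 with 4SU. In the CEP+4SU libraries it had 19.7, 13.9 and 16.2 CPM. Every treated library was below every DMSO library, and replicate 1 of each treated group was the highest of its group. The mean fell from 26.3 ± 2.53 to 16.6 ± 2.90 CPM with both, which on the log2 scale is -0.67 ± 0.15 (SE, edgeR adjusted p = 0.0355).

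**Figure D2:**
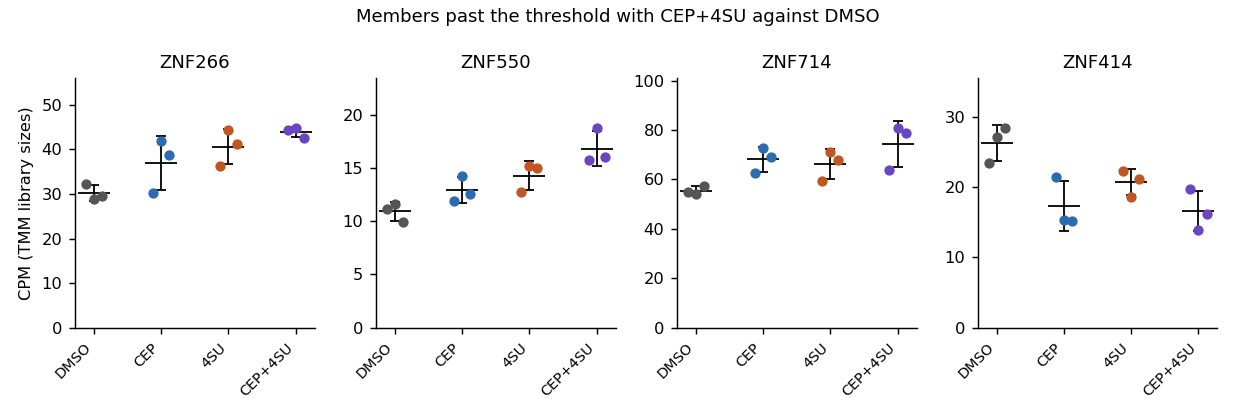
CPM in each of the 12 libraries (points, replicates 1 to 3 from left to right) with the mean and SD of each group of 3 (bar and whiskers) for ZNF266, ZNF550, ZNF714 and ZNF414, axes starting at 0. In ZNF266 and ZNF550 the CEP+4SU libraries are the highest group, and in ZNF414 every treated library is below DMSO.

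These calls depended on single libraries. Without DMSO replicate 1, 2 or 3 or CEP+4SU replicate 2 or 3, 0 of the members passed, with 0.0766% to 0.176% of all genes passing in these fits. Without CEP+4SU replicate 1, 9 members did, the 4 among them, and 4.42% of all genes did. With each library's trend on GC content removed, ZNF266 (log2 fold change 0.47, adjusted p = 0.0142) and ZNF550 (0.56, adjusted p = 0.0248) passed, and ZNF714 (0.27, adjusted p = 0.0778) and ZNF414 (-0.30, adjusted p = 0.187) did not. In that fit 0.344% of all genes passed as higher and 0.609% as lower. DESeq2 called 13 of the 141 members to which it gave an adjusted p (9.22%, against 9.96% of all such genes), all 4 included. By limma on log2(FPKM + 1) 0 members and 0.118% of all genes passed, with adjusted p-values of 0.0900 to 0.111 for the 4. Without CEP replicate 2 and CEP+4SU replicate 2, the libraries with the fewest genes detected, ZNF266 alone of the members passed, and 0.863% of all genes.

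By unadjusted p, and with the 4 called members counted, more members lay above DMSO than below it. With CEP+4SU, 61 members had an unadjusted p under 0.05 (29.8%, against 21.4% of all genes), 49 higher (23.9%, against 10.5%) and 12 lower (5.85%, against 10.8%). In 49 members all CEP+4SU libraries lay above all DMSO libraries and in 19 all lay below, where over all genes 14.1% and 14.6% did. The largest such differences among members with at least 1 CPM were, beside ZNF414 and ZNF550, those of ZNF331, ZNF565 and ZNF793. ZNF331, an imprinted KRAB zinc finger gene, had 4.22, 5.17 and 3.07 CPM in DMSO and 6.23, 6.85 and 7.13 with both (log2 difference 0.70, adjusted p = 0.0780 by edgeR). ZNF565 had 2.95, 2.27 and 1.82 in DMSO and 1.72, 1.15 and 1.46 with both (-0.70, adjusted p = 0.195). ZNF793 had 2.68, 2.76 and 2.24 in DMSO and 3.01, 5.03 and 3.42 with both (0.58, adjusted p = 0.162). Their groups did not overlap, and none of the 3 passed. The member with the next smallest p after the 4 called was ZNF30, at 9.68, 8.13 and 7.63 CPM in DMSO and 11.7, 13.2 and 12.2 with both (0.54, adjusted p = 0.0700).

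CEP alone gave no called member. With CEP against DMSO 0 of 205 members passed by edgeR, where 0.0564% of all genes did, and 28 had an unadjusted p under 0.05, or 13.7%, against 18.6% of all genes. Of the 28, 16 were higher and 12 lower (9.79% and 8.77% of all genes). DESeq2 called 2, ZNF414 and ZNF562, of the 114 members to which it gave an adjusted p (1.75%, against 1.83% of all such genes). All 3 CEP libraries lay above DMSO in 19 members and below it in 12, against 13.5% and 10.1% of all genes. The 5 members with the smallest p were ZNF414 (log2 difference -0.61, adjusted p = 0.173), ZNF562 (0.41, adjusted p = 0.173), ZNF714 (0.30, adjusted p = 0.187), ZNF526 (-0.38, adjusted p = 0.189) and ZNF787 (-0.47, adjusted p = 0.191). ZNF562 had 39.0, 36.3 and 42.4 CPM in DMSO and 47.2, 60.8 and 48.2 with CEP. ZNF526 had 21.3, 17.6 and 18.7 in DMSO and 14.1, 14.9 and 15.2 with CEP, and ZNF787 had 50.2, 46.7 and 47.7 in DMSO and 44.5, 29.04 and 31.0 with CEP. In all 5 the groups did not overlap, and in ZNF787 replicate 1 was much closer to DMSO than replicates 2 and 3. Without CEP replicate 1, 11 members passed, and 6.61% of all genes did.

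4SU alone gave no called member either. With 4SU against DMSO 0 of 205 passed by edgeR, where 0.00564% of all genes did. DESeq2 gave an adjusted p to only 6 members and to 5236 genes. It called 0 of these members and 0.363% of these genes, which says little about the other members. Of the 15 members with an unadjusted p under 0.05 (7.32%, against 6.5% of all genes), 14 were higher and 1 was lower, where 2.78% and 3.72% of all genes were. All 4SU libraries lay above all DMSO libraries in 33 members, or 16.1%, and below them in 11, or 5.37%, where over all genes 7.58% and 10.3% did. The 5 smallest p-values belonged to ZNF266 (log2 difference 0.43, adjusted p = 0.537), ZNF329 (0.56, adjusted p = 0.557), ZNF226 (0.44, adjusted p = 0.612), ZNF331 (0.63, adjusted p = 0.669) and ZNF550 (0.39, adjusted p = 0.684). ZNF329 had 6.64, 5.71 and 5.60 CPM in DMSO and 8.84, 8.96 and 8.71 with 4SU, and ZNF226 had 11.7, 12.9 and 13.2 in DMSO and 15.4, 18.8 and 16.9 with 4SU. In both, all 4SU libraries exceeded all DMSO libraries. Fitted on the 6 libraries of the comparison alone, ZNF266 passed (0.44, adjusted p = 0.0179), as did 0.557% of all genes.

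The 3 comparisons share the DMSO libraries, so their values stand side by side and were not taken as independent. Averages over the other compound use all 12 libraries. For CEP averaged over 4SU, 0 members passed by edgeR (0.276% of all genes did) and 43 had an unadjusted p under 0.05 (24.3% of all genes did). DESeq2 called 12 of the 88 members to which it gave an adjusted p (13.6%, against 14.6% of all such genes). The smallest adjusted p-values were 0.0576 for ZNF414 (log2 difference -0.46), 0.0651 for ZNF585A (0.51), 0.0653 for ZNF614 (0.27), 0.0662 for ZNF562 (0.30) and 0.0681 for ZNF526 (-0.35). Without CEP replicate 1, 21 members passed, where 11.8% of all genes did, and without CEP+4SU replicate 1, 11 passed, where 6.16% of all genes did.

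For 4SU averaged over CEP, 0 members passed by edgeR (0.558% of all genes did) and 25 had an unadjusted p under 0.05 (12.6% of all genes did). DESeq2 called 5 of the 175 members to which it gave an adjusted p (2.86%, against 2.62% of all such genes). The smallest adjusted p-values were 0.0620 for ZNF266 (0.34), 0.0670 for ZNF550 (0.39), 0.0924 for ZNF738 (0.35), 0.0967 for ZNF417 (0.36) and 0.126 for ZNF274 (0.24). ZNF417, which shares 25.9% of its 100-base stretches, most with its neighbour ZNF587, had 8.32 to 9.62 CPM in the 6 libraries without 4SU and 10.2 to 13.2 in the 6 with it. ZNF738, a member without a finger, had 11.1 to 14.6 without 4SU and 15.2 to 18.1 with it. These were the 2 members in which the 6 libraries with 4SU lay above the 6 without, as they did in 0.491% of all genes. With the GC trend removed, 6 members passed, all higher, where 0.931% of all genes passed as higher and 4.31% as lower. They were ZNF266, ZNF417, ZNF428, ZNF527, ZNF550 and ZNF738, with log2 fold changes between 0.31 and 0.38 and adjusted p-values between 0.00760 and 0.0468.

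No member passed the test of a different response to CEP with and without 4SU. This interaction passed for 0 members by edgeR, as for 0 of all genes, and for 0 by DESeq2, and 3 members had an unadjusted p under 0.05, where 2.63% of all genes did. The 5 smallest p-values were those of ZNF221, ZNF85, ZNF229, ZNF329 and ZNF607, each with an adjusted p of 1.00. The largest of these values was that of ZNF229, at 0.493 to 1.10 CPM in DMSO, 0.586 to 1.41 with CEP, 1.20 to 1.32 with 4SU and 0.537 to 0.804 with both (log2 interaction -1.41, standard error 0.67). With 3 libraries a group these differences did not hold after adjustment over all genes.

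The family as a whole lay a little above the other genes. The median log2 fold change over the 205 tested members was 0.057 with CEP, 0.091 with 4SU and 0.13 with both, where the medians over all genes tested were -0.0047, -0.0073 and 6.61e-05. Above 0 lay 125, 136 and 141 of the members, against 49.4%, 48.2% and 50% of all genes. ZNF genes of other chromosomes had medians of 0.057, 0.019 and 0.088, and the other protein-coding genes of chromosome 19 had -0.21, -0.090 and -0.21. These are descriptions without a test, and hold only for members that passed the filter.

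Library by library, the members' median relative to the mean of the DMSO libraries was -0.033, 0.11 and 0.11 on the log2 scale in CEP replicates 1, 2 and 3. It was 0.036, 0.13 and 0.079 in the 4SU libraries and 0.076, 0.21 and 0.15 in the CEP+4SU libraries, and between -0.00099 and 0.011 in DMSO. CEP replicate 1 was thus the only treated library at or below DMSO, and replicate 1 was the lowest in each treated group. The median of the other genes of chromosome 19 was below 0 in 8 of 9 treated libraries, CEP replicate 1 among them, and was 0.0099 in 4SU replicate 1. It was lowest in CEP replicate 2 (-0.31) and CEP+4SU replicate 2 (-0.40).

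GC content moved with these differences. The tested members had a median of 44.3%, against 49.3% for all genes tested, 46.4% for ZNF genes elsewhere and 60.8% for the other genes of chromosome 19. Across the 205 members, which share the same libraries, Pearson's r of the log2 fold change with GC content was -0.59 for CEP, -0.28 for 4SU and -0.47 for CEP+4SU, and across the 17513 other genes with a GC value it was -0.43, -0.16 and -0.39. By rank (Spearman's rho) the members were not the stronger for CEP or CEP+4SU. It was -0.55, -0.29 and -0.42 across the members and -0.57, -0.27 and -0.51 across the other genes. The trend also differed between libraries. For this, each gene's log2 CPM was taken relative to its mean over the 12 libraries. Over all genes, this value differed by 0.097 to 0.10 for each 10 percentage points of GC content in the DMSO libraries. It differed by -0.15 in CEP replicate 2, -0.11 in CEP replicate 3 and -0.21 in CEP+4SU replicate 2. CEP replicate 1 and CEP+4SU replicate 1 had 0.039 and 0.033. These slopes compare libraries and do not say whether GC-rich genes were higher or lower within a library. In CEP+4SU replicate 2 the 116 members with a GC content under 45% had a median of 0.34 relative to DMSO and the 21 with 60% or more had -0.54.

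Within ranges of GC content the medians of the members were near those of other genes for CEP. With CEP against DMSO, members with a GC content under 40% (n = 22) had a median log2 fold change of 0.20 and other genes 0.21, those of 40 to 45% (n = 94) had 0.16 and 0.14, those of 45 to 50% (n = 59) had -0.0018 and 0.048, those of 50 to 60% (n = 9) had -0.079 and -0.10, and those of 60% or more (n = 21) had -0.33 and -0.28. With 4SU the members' medians were higher than those of other genes in the lower 3 ranges, at 0.17 against 0.077 under 40%, 0.10 against 0.034 from 40 to 45% and 0.077 against 0.0040 from 45 to 50%. Above that they were lower, at -0.12 against -0.043 from 50 to 60% (n = 9) and -0.14 against -0.11 from 60%. With both compounds they were 0.30 against 0.21, 0.20 against 0.13 and 0.072 against 0.039 in the lower 3 ranges, -0.086 against -0.099 from 50 to 60% and -0.30 against -0.27 from 60%.

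**Figure D3:**
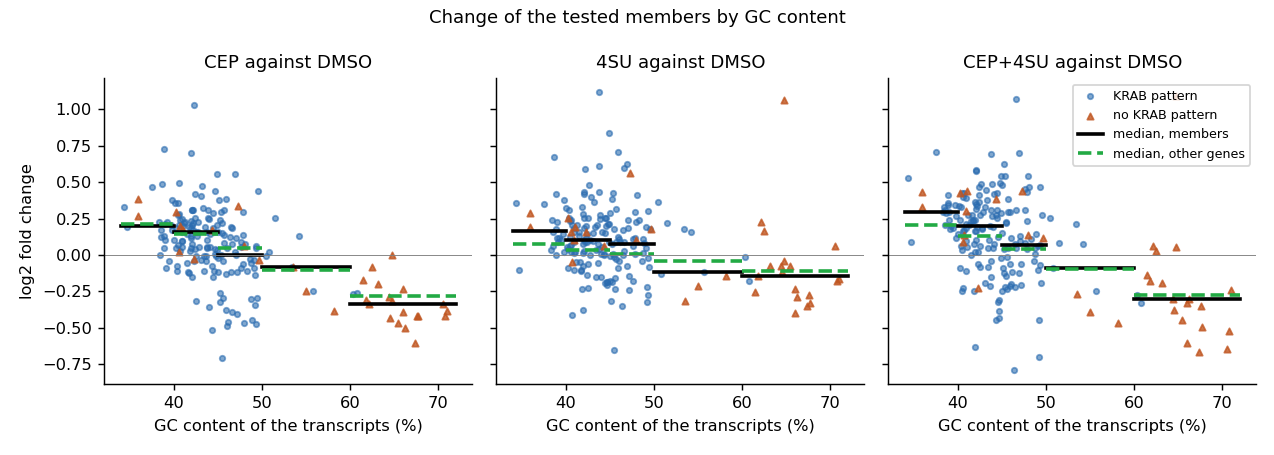
Log2 fold change of each of the 205 tested members (circles with, triangles without a KRAB pattern) against the GC content of its transcripts, for 3 comparisons, with medians of members (black) and of other genes (green, dashed) in 5 ranges of GC content. Both medians fall with GC content, and in the 3 ranges below 50% they lie closer to each other for CEP than for 4SU.

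The members' medians were nearer to those of all genes once each library's GC trend was removed, by more for CEP than for 4SU. For CEP averaged over 4SU the members' median went from 0.049 to 0.023, where that of all genes was 0.032 after removal. For 4SU averaged over CEP it went from 0.090 to 0.057, where that of all genes was -0.024, and with 126 of 205 members above 0 against 43.1% of all genes. For CEP+4SU against DMSO it went from 0.13 to 0.064, with 0.0056 for all genes. ZNF genes of other chromosomes, treated the same way, had a median of 0.00037 for 4SU averaged over CEP. The difference between the members and these genes was not tested.

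**Figure D4:**
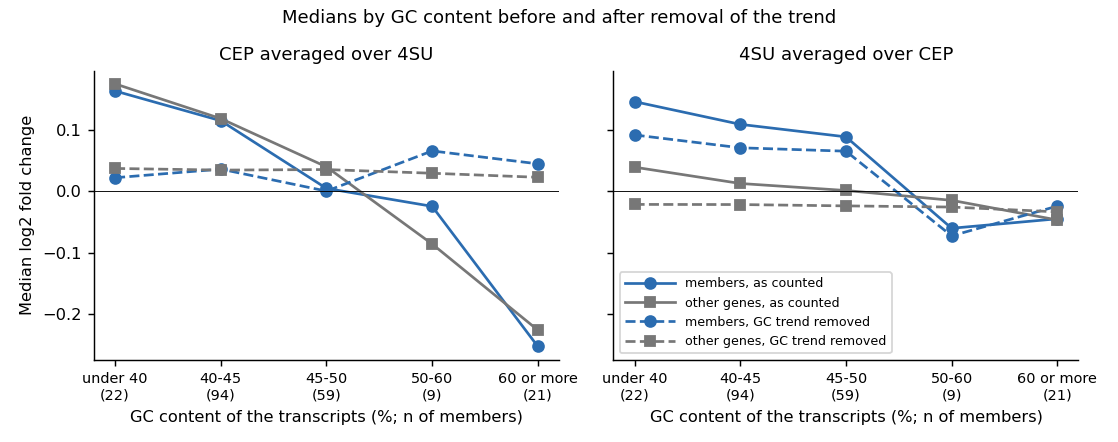
Median log2 fold change of members (circles) and other genes (squares) in 5 ranges of GC content for CEP averaged over 4SU and 4SU averaged over CEP, before (solid) and after (dashed) removal of each library's GC trend. In the 3 ranges below 50% the members lie above the other genes for 4SU, and the lines lie closer together for CEP.

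By structure, the 171 tested members with a KRAB pattern had a median log2 fold change of 0.18 with both compounds, 126 of them above 0, and the 34 without it had -0.19, with 15 above 0. The pattern and GC content go together, and the order was not the same in each range of GC content. Below 50%, members with the pattern (n = 163) had a median of 0.18 and those without (n = 12) had 0.32. From 50 to 60% the order was that of the whole family, at 0.078 with the pattern (n = 6) and -0.39 without (n = 3). At 60% or more, the 2 with the pattern had -0.30 and the 19 without had -0.30.

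By position, the members of the cluster at chr19:36182060-37817300 were the most uniform of the large clusters with both compounds, with 24 of 25 tested members above 0 and a median of 0.27, at a median GC content of 41.6%. In the pericentromeric cluster 19 of 23 lay above 0 (median 0.20, GC content 39.3%), and in the cluster near the chromosome end 30 of 54 did (median 0.043, GC content 48.3%). Of other genes, 85.6% with a GC content under 40%, 75.8% from 40 to 45% and 58.2% from 45 to 50% lay above 0. The clusters are thus not set apart from genes of like GC content by these counts alone. None of these clusters was tested as a unit.

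The genes of TRIM28 and SETDB1, the silencing partners of KRAB zinc finger proteins, did not pass the threshold in any comparison. TRIM28 had 253, 216 and 225 FPKM in DMSO and 215, 163 and 214 with both (log2 difference -0.23, adjusted p = 0.217), and SETDB1 had 7.12, 6.94 and 7.05 in DMSO and 7.10, 7.79 and 7.25 with both (0.069, adjusted p = 0.670). Of 23 genes listed for this machinery, 2 rose and 0 fell with CEP+4SU (0.643% and 0.993% of all genes did), and 12 had an unadjusted p under 0.05, where 21.4% of all genes did. With CEP or 4SU alone 0 passed, and 4 and 3 had an unadjusted p under 0.05, where 18.6% and 6.5% of all genes did. The median log2 fold change of the 23 with both was 0.079. The genes that rose were MORC2, which acts with the HUSH silencing complex, and FAM208A (TASOR), a subunit of that complex. No fit with a library left out or with the GC trend removed is given here for these genes. MORC2 had 12.4, 13.3 and 12.9 FPKM in DMSO and 12.9, 13.9 and 11.8 with CEP. It had 16.1, 17.4 and 16.6 with 4SU and 17.2, 16.0 and 16.0 in the CEP+4SU libraries (log2 fold change 0.35 with both, adjusted p = 0.0356). All 6 libraries with 4SU lay above all 6 without, and MORC2 also rose with 4SU averaged over CEP (0.36, adjusted p = 0.00890). FAM208A had 17.6, 18.7 and 18.7 in DMSO, 22.8, 26.7 and 22.02 with both, and rose by 0.38 (adjusted p = 0.0428), its groups not overlapping.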

How the data were processed

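RNA-Seq counts were analysed as deposited. The authors deposited whole-number counts for 58735 genes on GRCh38. They name HISAT2 2.0.5 as the aligner and featureCounts 1.5.0-p3 as the counter, after a filter on read quality. Use of read strand is not stated, so reads of a gene and an antisense partner cannot be told apart. As FPKM, the authors deposited the same data scaled by gene length and an adjusted library size. The submitters' notes also name DESeq2. A table of group means was not used. The depth was 16569114 to 24644734 counts per library, and a floor of 3 counts covers counting error only.

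Counts were tested with edgeR 4.0.16 (R 4.3.3) after filterByExpr (minimum count 10) and TMM, all 12 libraries in 1 quasi-likelihood model, with Benjamini-Hochberg adjustment over 17729 genes. FPKM served for levels between genes. GC content was taken over GENCODE 29 transcripts, and its trend removed per library by a spline with 6 degrees of freedom. The script was tested on simulated counts. Alternatives included DESeq2, limma on log2 FPKM, other filters and normalizations, GC and length trends removed, replicate number as a block and each library left out.

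The members and lists were chosen with earlier results of these data known. The text names members past the threshold, otherwise the 5 with the smallest p in each comparison, the 6 with the highest FPKM in DMSO, the 5 with the largest differences between CEP+4SU and DMSO without overlap at 1 CPM or more, and TRIM28, SETDB1 and listed partners that passed. Members named for 0 counts, for having no finger, for shared sequence, for an alternative fit or as examples of finger sequence were chosen after their values were seen.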

Additional observations from a re-analysis of the deposited data

How the results depend on the processing

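The number of members called depended on the fit, and the medians kept their sign in the comparisons with DMSO and in both averages under all alternatives run. Shares of all genes called in the same fit are in parentheses, for DESeq2 of the genes to which it gave an adjusted p. Members with such a value numbered 114 for CEP, 141 for CEP+4SU, 88 for CEP averaged and 175 for 4SU averaged. Of the 0 members for CEP (0.0564%), DESeq2 gave 2 (1.83%), no low-count filter 5 (1.86%) and the replicate block 5 (4.40%). The 4 for CEP+4SU (1.64%) became 13 with DESeq2 (9.96%), 13 with no low-count filter (3.46%), 19 with the replicate block (9.40%), 2 with the GC trend removed (0.953%; median log2 fold change 0.064), 2 with that and the block (1.13%; median 0.066), and 0 with limma on log2(FPKM + 1) (0.118%; median 0.072) or log2(FPKM + 0.1) (0.135%). For 4SU (0.00564%), fitting 2 groups alone gave 1 (0.557%). Of the 0 for CEP averaged over 4SU (0.276%), DESeq2 gave 12 (14.6%), upper-quartile normalization 1 (0.412%), no low-count filter 14 (4.06%) and the block 18 (12.8%). Of the 0 for 4SU averaged over CEP (0.558%), DESeq2 gave 5 (2.62%), library size alone 1 (0.400%), no low-count filter 3 (0.873%), the block 2 (1.90%), and removal of the GC trend 6 without the block (5.24%) and 6 with it (5.23%). At an adjusted p of 0.5 or less the counts were 86 for CEP (44.4%), 112 for CEP+4SU (47.0%), 103 for CEP averaged (52.3%) and 51 for 4SU averaged (20.5%). Leaving out 1 library at a time gave 0 to 11 members for CEP (0.0219% to 6.61%; median 0.038 to 0.14), 0 to 9 for CEP+4SU (0.0766% to 4.42%; median 0.10 to 0.17), 0 to 21 for CEP averaged (0.115% to 11.8%), 0 to 2 for 4SU averaged (0.0328% to 0.687%), and a median interaction between -0.088 and 0.023. Without CEP replicate 2 and CEP+4SU replicate 2, an alternative chosen after seeing the data, 1 member passed for CEP+4SU (0.863%) and 1 for 4SU averaged (1.23%). With a floor of 2 FPKM in place of 1, 91 members counted as expressed. Whether replicate numbers pair the libraries is not stated, and the values did not settle it. Deviations from group means correlated at -0.047 to 0.14 over 18 pairs of equal number, 1 of them over 0.1. Over 36 other pairs they correlated at -0.16 to 0.055. Between CEP and CEP+4SU the correlation was 0.14 for replicate 1, 0.086 for replicate 2 and -0.047 for replicate 3. The block was therefore kept as an alternative. Over the other fits of single named genes that gave an adjusted p, 592 values kept their direction and side of the threshold, 68 newly passed and 35 no longer did, and none reversed. The filter on low counts left 44 members untested, and 48 lay under 0.1 FPKM.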
